A study of Mus musculus with 101 samples.

Results

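XX primordial germ cells of mouse embryos were compared between ancestral exposure to benzo[a]pyrene (BaP) at 2 mg/kg-day, called high, and oil vehicle, across generations F1, F2 and F3. The members were all XX embryos labelled with the high dose or with oil in any of the 3 generations, which gave 29 embryos of the 101 sequenced in the series. Of these, 12 were high (5 in F1, 3 in F2 and 4 in F3) and 17 were vehicle (5 in F1, 6 in F2 and 6 in F3). In the study, pregnant F0 dams of the OG2 strain, which carry EGFP under the Pou5f1 promoter and enhancers, received BaP in sesame oil or the oil alone by mouth each day, and gonads were taken at E13.5 from embryos of 3 successive generations. Dosing ran from E6.5 to E11.5 for F1 embryos and from E6.5 to E15.5 for the lines that gave F2 and F3, so that generations also differed in the dosing window. EGFP-positive germ cells were sorted from the gonads of each embryo, and RNA-seq libraries were made from 1 embryo each with oligo(dT)-primed cDNA. F1 embryos were exposed in utero, whereas F2 and F3 embryos descended from exposed F1 animals. The paper describes F2 as exposed while still germ cells of the F1 fetus, and F3 as unexposed. Vehicle embryos of each generation had the same strain, transgene and sort, so that the groups differed in the ancestral dose. The number before the point in each label was taken as the dam, which the labels do not state. On that reading the 29 embryos came from 29 different dams, of which 25 also gave an XY embryo of the same dose.

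Germ cells of an XX gonad multiply in the fetal ovary, keep a pluripotency-related program for a time, and then enter meiotic prophase, whereas germ cells of an XY gonad stop dividing and begin spermatogenic differentiation. BaP is a polycyclic aromatic hydrocarbon that binds the aryl hydrocarbon receptor, is oxidised by cytochrome P450 enzymes to a reactive diol epoxide, and forms bulky DNA adducts. Fetal germ cells erase and later renew their DNA methylation, and they rely on oxidative and glycolytic metabolism whose balance differs between the sexes.

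The germ cell label was checked against 11 germ cell genes, each of which was present in all 29 embryos. Their summed level ran from 3618 to 5624 with a median of 4602 normalized counts in high embryos and from 3156 to 5436 with a median of 4014 in vehicle embryos. Dazl, an RNA-binding protein of germ cells, measured 611 to 1918 with a median of 1261 in high and 879 to 2251 with a median of 1319 in vehicle embryos. Pou5f1, whose regulatory sequence drove the sorted EGFP, measured 24.0 to 139 with a median of 58.4 in high and 10.9 to 99.2 with a median of 60.8 in vehicle embryos. By Y-linked genes, 0 of the 29 libraries failed to match the XX label. Whole read counts could be recovered for 28 of the 29 embryos. Summed over the genes of the deposited table, which is not the depth of sequencing, they ranged from 5004382 to 54698496 with a median of 7811885, and 3 F1 libraries (2 high and 1 vehicle) had at least 21247642.

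In limma, no gene passed an adjusted p of 0.05 between high and vehicle XX germ cells with the generations analysed jointly. Many genes nonetheless leaned in 1 direction. The edgeR likelihood ratio test called 197 genes higher and 58 lower, and the edgeR quasi-likelihood test called 1. At an unadjusted p under 0.05, 51 of 82 respiratory chain genes and 42 of 81 cytosolic ribosomal protein genes were higher in high embryos (62.2% and 51.9%, beside 11.4% of all genes), and 12 respiratory chain genes were lower. Once the trends with GC content and with the length of the longest coding transcript were removed, 27 and 22 were higher. These 2 counts thus depended on that setting, in which 1319 of the 11719 genes with a length were higher. At the same threshold, 6 of 17 glycolytic genes and 4 of 12 BMP response and oogenic factor genes were lower (35.3% and 33.3%, beside 13.6% of all genes), and so was the antisense RNA Gm15441. The medians of the ribosomal and BMP lists did not lean that way in F2, and in F1 the glycolysis median of -0.028 was near that of all genes (-0.034). The 3 genes with the lowest largest p across generations, Tmub2, 2310003H01Rik and Leng1, were lower in each generation. More genes had a small p in F1 and F3 than in F2, where 3 high embryos were available.

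Of 12995 genes tested, limma called 0 (0%) at an adjusted p under 0.05, and the smallest adjusted p was 0.0543, a value shared by 343 genes. At an unadjusted p under 0.05, 1482 genes (11.4%) were higher and 1772 (13.6%) were lower in high embryos, together 3254 genes. With upper quartile scaling on top of the normalized values, that split became 1948 higher and 1239 lower, so that 61.1% rather than 45.5% of these genes were higher. The edgeR quasi-likelihood test on recovered reads called 1 gene, the embryonic beta-like globin Hbb-y, and the edgeR likelihood ratio test called 197 higher (1.52%) and 58 lower (0.446%). As described below, Hbb-y was tested only because high embryos raised its mean over the minimum, so its call is not independent evidence of a change. Whether limma called any gene changed with single embryos, since leaving out any 1 of 7 embryos brought genes past the threshold in either direction. Without the F1 high embryos D1824.1 or D2587.1, 441 and 663 genes were called higher and 490 and 689 lower. Without the F2 high embryo D1669.5 or the F3 high embryo D4190.2, 657 and 494 genes were called higher and 642 and 561 lower. Without a vehicle embryo, the counts higher and lower were 674 and 658 (F1 C4232.9), 528 and 487 (F2 D2991.1), and 329 and 313 (F3 D3526.1), and for each of the other 22 embryos the count stayed at 0. The smallest adjusted p ranged from 0.0145 to 0.124 over these fits, so that the threshold lay within the range that 1 embryo moved it.

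Gm15441, a long non-coding RNA transcribed antisense to Txnip, had lower levels in high XX germ cells. In F1, the high embryos measured 2.23, 3.19, 3.70, 5.03 and 5.47 normalized counts and the vehicle embryos 3.75, 4.32, 4.58, 5.72 and 5.91. In F2, the high embryos measured 2.04, 3.43 and 4.74, and the vehicle embryos ran from 4.32 to 8.05 with a median of 5.48. In F3, the high embryos measured 1.69, 2.72, 3.12 and 3.32, and the vehicle embryos ran from 4.78 to 11.0 with a median of 5.90. The groups overlapped in F1 and F2 but not in F3, where all 4 high embryos lay below all 6 vehicle embryos, and 10 of the 12 high embryos lay below the median of their own vehicle group. Over the 3 generations limma gave a log2 change of -0.71 (SE 0.155, adjusted p = 0.0543), with -0.31 in F1, -0.69 in F2 and -1.13 in F3, and the adjusted p was 0.0386 by the likelihood ratio test and 0.0863 by the quasi-likelihood test. With single embryos left out the adjusted p ran from 0.0179 to 0.124, and it was under 0.05 without any 1 of the 7 embryos named above. The gene lies on the minus strand at chr3:96555765-96566801 (GRCm38) with 4 exon blocks, and 606 of its 1676 exon bases (36.2%) are also exon bases of Txnip on the plus strand. The library kit does not mark strand, so reads in the shared stretch cannot be told apart between the 2 genes.

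Txnip, the inhibitor of thioredoxin and of glucose uptake that Gm15441 overlaps, differed less. Its level was 12.9 to 17.6 with a median of 16.2 normalized counts in high and 11.0 to 37.5 with a median of 19.8 in vehicle embryos. The high embryos sat within the vehicle range, yet all 12 lay below the median of their own vehicle group (log2 change -0.24, SE 0.136, adjusted p = 0.265). In the list of 13 thioredoxin and glucose response genes, 2 were higher and 1 was lower at an unadjusted p under 0.05 (15.4% and 7.69%, beside 11.4% and 13.6% of all genes), and the median log2 change was 0.047 beside -0.035 for all genes tested (0.11 beside 0.023 with upper quartile scaling). With GC content and the length of the longest coding transcript removed, the list median was 0.16, beside -0.011 for all genes. Without the F1 vehicle embryo C4232.9 the list median was -0.023, and without it or the F2 vehicle embryo D2996.1 the lower count was 2. The lower member with all embryos was Gm15441 itself. The 2 higher members were Txn1, thioredoxin itself (log2 change 0.39, adjusted p = 0.0603), and Arrdc4, an arrestin-domain relative of Txnip (log2 change 0.35, adjusted p = 0.0756).

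Slc25a35, a member of the family of inner mitochondrial membrane carriers, had higher levels in high XX germ cells. In F1, the high embryos measured 6.94, 10.8, 11.2, 11.4 and 12.6 normalized counts and the vehicle embryos 4.87, 6.04, 6.29, 7.91 and 8.44. In F2, the high embryos measured 5.51, 7.49 and 11.7, and the vehicle embryos ran from 4.06 to 8.18 with a median of 6.59. In F3, the high embryos measured 6.75, 8.88, 12.8 and 20.3, and the vehicle embryos ran from 3.71 to 8.45 with a median of 5.74. High and vehicle embryos overlapped in each generation, and 11 of 12 high embryos lay above the median of their own vehicle group. With generations together limma gave a log2 change of 0.63 (SE 0.155, adjusted p = 0.0543), with 0.62 in F1, 0.32 in F2 and 0.90 in F3, and the adjusted p was under 0.05 without the same 7 embryos taken 1 at a time (lowest 0.0195). The likelihood ratio test gave 0.0418 and the quasi-likelihood test 0.0863. The gene lies on the plus strand at chr11:68968131-68974365 (GRCm38), and 1151 of its 3677 exon bases (31.3%) are shared with Rangrf, which encodes a partner of the nuclear transport GTPase Ran on the opposite strand. Rangrf was far more abundant, with a mean of 186 normalized counts in high and 119.8 in vehicle embryos, and it leaned the same way (log2 change 0.54, SE 0.166, adjusted p = 0.0557), so reads of the shared bases cannot be assigned to 1 of the 2 genes. Rangrf was named after its values were seen.

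Gm5083, a long intergenic non-coding RNA at chr13:44121167-44125179 (GRCm38) on the plus strand, was scarce in vehicle embryos and higher in high embryos of F1 and F3. In F1, the high embryos measured 0.136, 0.713, 1.58, 1.77 and 1.82 normalized counts and the vehicle embryos 0.127, 0.268, 0.270, 0.278 and 0.540. In F2, the high embryos measured 0.240, 0.381 and 0.507, and the vehicle embryos ran from 0.120 to 0.721 with a median of 0.289. In F3, the high embryos measured 0.779, 1.28, 1.49 and 2.96, and the vehicle embryos ran from 0 to 0.735 with a median of 0.312. The groups did not overlap in F3, overlapped through 1 low embryo in F1, and in F2 the high embryos lay within the vehicle range. For Gm5083 limma gave a log2 change of 0.85 (SE 0.212, adjusted p = 0.0543), with 0.96 in F1, 0.12 in F2 and 1.34 in F3, and the lowest adjusted p with 1 of the 7 embryos left out was 0.0186. By the likelihood ratio test the adjusted p of Gm5083 was 0.0386, and by the quasi-likelihood test 0.0863. Its mean was 1.14 in high and 0.318 in vehicle embryos, so it reached the minimum mean of 0.5 only through the high embryos. These p-values are therefore not independent evidence of a change. No other annotated gene shares exon bases with Gm5083, and at levels near 1 normalized count the log2 scale with its added 0.5 understates the ratio of the groups.

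**Figure D1:**
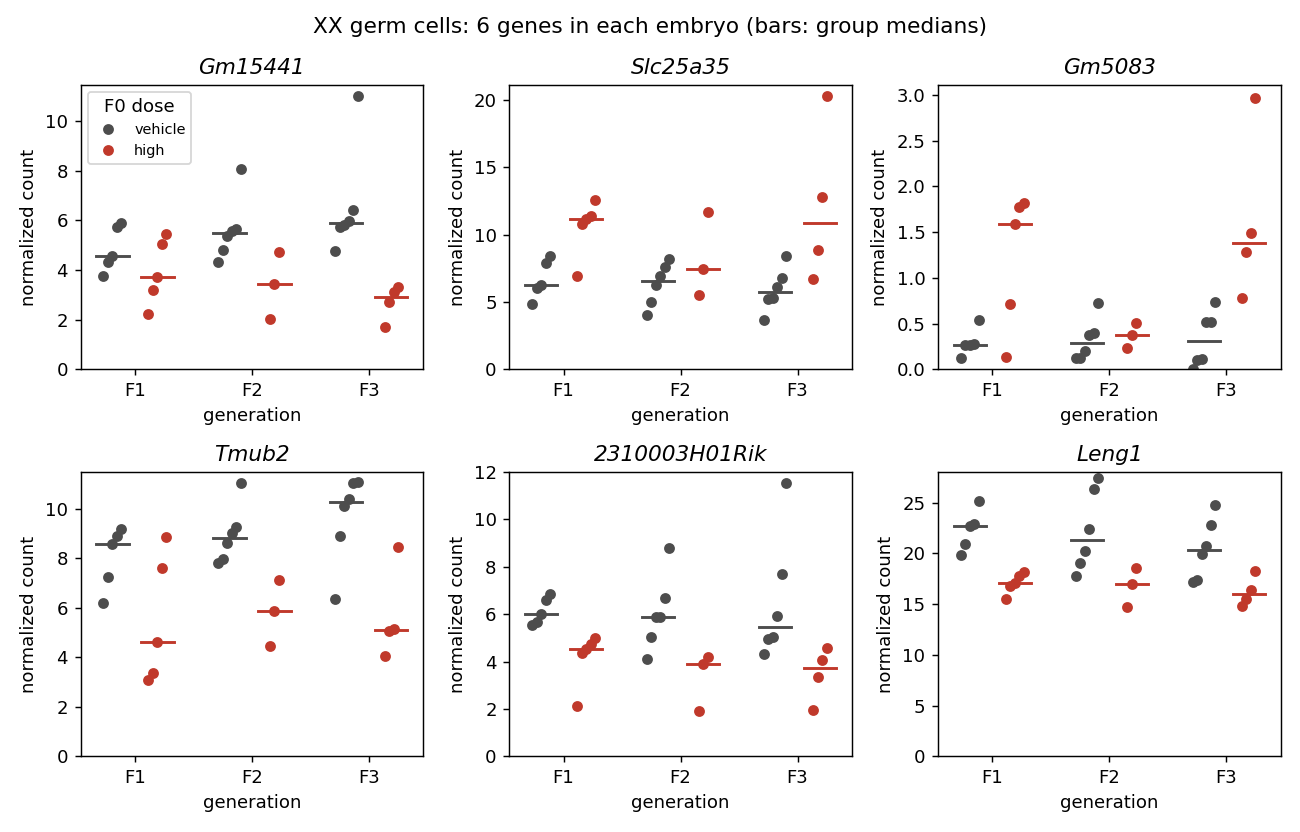
Normalized counts (vertical axes, from 0) of 6 genes in each XX embryo by generation (horizontal axes), with vehicle embryos in grey, high embryos in red and bars at group medians. Median Gm15441 was 2.92 in high and 5.90 in vehicle F3 embryos, and median Slc25a35 was 11.2 and 6.29 in F1. All 12 high embryos of Leng1 and of 2310003H01Rik lay below the median of their own vehicle group.

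The 3 leading genes were also read in XY littermates and in other XY embryos, 14 high and 17 vehicle. Gm15441 in XY embryos was 2.05 to 6.98 with a median of 3.95 at the high dose and 2.72 to 7.43 with a median of 4.03 in vehicle (log2 change -0.067). Slc25a35 was higher in XY than in XX cells, at 12.7 to 26.4 with a median of 17.7 in high and 10.3 to 29.2 with a median of 15.2 in vehicle XY embryos (log2 change 0.085). Gm5083 likewise reached 1.42 to 8.67 with a median of 2.77 in high and 1.65 to 4.03 with a median of 2.96 in vehicle XY embryos (log2 change 0.0079). In vehicle embryos the XY range of Slc25a35 and of Gm5083 lay above the XX range, and the highest of the high XX embryos reached into the XY vehicle range. The difference between the XX and XY dose effects was -0.64 for Gm15441, 0.55 for Slc25a35 and 0.84 for Gm5083, each with an adjusted p of 0.670. At the lower doses, which were set against the same vehicle embryos, the log2 changes of Gm15441 were -0.24 (low) and -0.0039 (middle). Those of Slc25a35 were 0.28 and 0.23, and those of Gm5083 0.53 and 0.45, in the same order.

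The direction of the 3 generation contrasts, each against its own vehicle embryos, was the same for 5217 of 12995 genes, 40.1% of those tested. Of these, 2388 (18.4%) were higher and 2829 (21.8%) were lower in high embryos of all 3 generations. Among genes at an unadjusted p under 0.05 with generations together, 1274 of the 1482 higher genes (86.0%) and 1445 of the 1772 lower genes (81.5%) had 1 direction, a share that the combined fit itself favours because it averages the same contrasts. Only 3 genes (0.0231%) also had an unadjusted p under 0.05 in each generation, and this count ran from 0 without the F2 high embryo D3620.3 to 18 without the F2 high embryo D1669.5. Between these it was 7 without D1824.1, 13 without D2587.1, 10 without C4232.9, 11 without D2991.1, 10 without D4190.2 and 5 without the F3 vehicle embryo D1344.3. It was 1 after removal of GC content and length trends (2 with the longest coding transcript), 1 with upper quartile scaling, and 0 with the edgeR likelihood ratio test. Within single generations limma called 0 genes at an adjusted p under 0.05, with 2222 (17.1%), 333 (2.56%) and 2112 (16.3%) at an unadjusted p under 0.05 in F1, F2 and F3. The likelihood ratio test called 71 genes in F1 and 0 in F2 and F3. Without D2587.1, limma called 253 genes in F1, and without E0103.2, an F3 high embryo, it called 2. Without D4190.2 it called 136 in F3.

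Tmub2, a membrane protein with a ubiquitin-like domain, was lower in high embryos of each generation. Its level was 3.09, 3.35, 4.61, 7.59 and 8.84 normalized counts in F1 high and 6.20, 7.22, 8.57, 8.90 and 9.17 in F1 vehicle embryos. In F2 it was 4.44, 5.87 and 7.10 in high and 7.81 to 11.0 with a median of 8.83 in vehicle embryos. In F3 it was 4.05, 5.07, 5.13 and 8.47 in high and 6.37 to 11.1 with a median of 10.2 in vehicle embryos. The groups did not overlap in F2 and overlapped in F1 and F3, where 1 or more high embryos reached the vehicle range (log2 change -0.65, SE 0.138, adjusted p = 0.0543). The gene 2310003H01Rik, also named Faap100 and encoding a component of the Fanconi anemia core complex, measured 1.90 to 5.01 with a median of 4.12 in high and 4.09 to 11.5 with a median of 5.90 in vehicle embryos. Its F1 high embryos, at 2.12, 4.35, 4.51, 4.75 and 5.01, all lay below the F1 vehicle embryos, at 5.55, 5.65, 6.02, 6.58 and 6.83, and all 12 high embryos were below their vehicle median. The change was -0.55 in F1, -0.80 in F2 and -0.80 in F3 (log2 change -0.71, SE 0.153, adjusted p = 0.0543). Leng1 measured 14.7 to 18.6 with a median of 16.9 in high and 17.1 to 27.4 with a median of 20.9 in vehicle embryos, with 15.5, 16.8, 17.1, 17.8 and 18.2 in F1 high against 19.8, 20.9, 22.7, 22.9 and 25.2 in F1 vehicle embryos. The F1 groups did not overlap, the F2 and F3 groups did, and the change of -0.37 in F1, -0.38 in F2 and -0.32 in F3 was close to equal in size (log2 change -0.36, SE 0.0855, adjusted p = 0.0543). Leng1 shares 433 of its 2222 exon bases (19.5%) with Cnot3 on the opposite strand.

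The other 7 genes ranked highest for a small p in every generation were lower in high embryos as well. Akr7a5, an aldo-keto reductase, ran from 8.53 to 39.3 with a median of 13.4 in high and 16.5 to 67.8 with a median of 27.7 in vehicle embryos, with -0.63 in F1, -0.90 in F2 and -0.996 in F3. C1ql1, a secreted C1q-domain protein, ran from 0.951 to 14.0 with a median of 3.29 and 4.33 to 17 with a median of 7.49, with -0.79 in F1, -0.94 in F2 and -1.45 in F3. The high and vehicle ranges of these 2 genes overlapped, and 9 and 10 of the 12 high embryos lay below their vehicle median. Adprh, which removes ADP-ribose from arginine, Lztr1, an adaptor that targets RAS proteins for degradation, and Mcrs1, a subunit of a histone acetyltransferase complex, had log2 changes of -0.57, -0.56 and -0.58. Rogdi and Ccdc71 had changes of -0.49 and -0.74, and all 12 high embryos of Ccdc71 and of Lztr1 were below their vehicle median.

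Among the genes with the smallest p over the combined generations, Sirt2, an NAD-dependent deacetylase, was lower in high embryos. Sirt2 ran from 2.02 to 8.24 with a median of 4.68 normalized counts in high embryos and from 6.05 to 14.0 with a median of 8.33 in vehicle embryos. The ranges overlapped, but all 12 high embryos were below the median of their own vehicle group (log2 change -0.82, SE 0.165, adjusted p = 0.0543). Tma7, a small ribosome-associated protein, was higher, at 301 to 1188 with a median of 635 in high and 119 to 576 with a median of 321 in vehicle embryos. Here 11 of 12 high embryos exceeded their vehicle median, and the F1 and F3 changes were larger than that of F2 (1.03 in F1, 0.55 in F2 and 1.35 in F3, log2 change 1.004, SE 0.202, adjusted p = 0.0543). Tpra1, a predicted multi-pass membrane protein, ran from 2.33 to 10.4 with a median of 4.46 in high and 6.61 to 18.5 with a median of 10.2 in vehicle embryos (log2 change -0.91, SE 0.192, adjusted p = 0.0543). The ranges overlapped, with 11 of 12 high embryos below their vehicle median. Alas1, the rate-limiting enzyme of heme synthesis in most tissues, ran from 2.92 to 17.6 with a median of 7.94 in high and 10.1 to 25.8 with a median of 13.7 in vehicle embryos (log2 change -0.80, SE 0.172, adjusted p = 0.0543). Its ranges overlapped as well, except in 1 generation. Dapk3, a serine/threonine kinase of the death-associated family, had a mean of 4.76 in high and 9.70 in vehicle embryos (log2 change -1.003). Prkaca, the catalytic subunit of protein kinase A, had means of 2.74 and 5.04 (log2 change -0.79). Efemp2 (an elastic fibre protein), Cldn6 (a tight junction claudin) and Gpank1 were lower too, with log2 changes of -0.77, -0.86 and -0.65. Hemt1, Ttc32 and 1810037I17Rik were higher, with log2 changes of 0.72, 0.59 and 0.70, and 3000002C10Rik was lower at -0.91. Each of these genes had an adjusted p of 0.0543 in limma. Each was under 0.05 when D1824.1, D2587.1, C4232.9, D1669.5, D2991.1, D4190.2 or D3526.1 was left out. Among the genes named, the lowest limma adjusted p in these fits was 0.0145, for Sirt2, Tma7 and Tpra1 and also for Tmub2, Uqcrc1 and C1ql1.

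Respiratory chain genes, which encode the complexes of oxidative phosphorylation, were mostly higher in high XX germ cells. Of 82 genes tested, 51 were higher and 12 were lower at an unadjusted p under 0.05 (62.2% and 14.6%, beside 11.4% and 13.6% of all genes), the likelihood ratio test called 6 higher and 1 lower, and 0 passed the adjusted threshold in limma. The median log2 change was 0.31 beside -0.035 for all genes (0.023 with upper quartile scaling), and it was 0.24, 0.18 and 0.44 in F1, F2 and F3, and 0.37 with that scaling. All 3 generations had 1 direction for 70 of the 82, of which 60 were higher and 10 lower (73.2% and 12.2%, beside 18.4% and 21.8% of all genes). Cox7c, a small subunit of cytochrome c oxidase, ran from 1376 to 3058 with a median of 1934 in high and 752 to 2284 with a median of 1316 in vehicle embryos, and Ndufa12, an accessory subunit of complex I, ran from 621 to 1482 with a median of 894 and 288 to 1021 with a median of 609. The ranges overlapped, yet all 12 high embryos exceeded their vehicle median for both genes (Cox7c: log2 change 0.53, SE 0.138, adjusted p = 0.0543). Atp5l, a subunit of the ATP synthase membrane domain, had a log2 change of 0.46.

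Uqcrc1, a core subunit of complex III and the respiratory gene with the smallest p, ran from 351 to 872 with a median of 505 normalized counts in high embryos and from 606 to 1042 with a median of 778 in vehicle embryos. Of the 12 high embryos, 10 lay below their vehicle median (log2 change -0.63, SE 0.130, adjusted p = 0.0543, with -0.71 in F1, -0.28 in F2 and -0.84 in F3). Over the respiratory chain list, the longest coding transcript had a median length of 809 bases for the 51 higher members and 1896 bases for the 11 lower members with a length, beside 2997 for all genes. After the trend of each embryo with GC content and this length was removed, a step chosen after seeing the data, 45 of the 51 and all 11 kept their sign, and their median log2 changes were 0.17 and -0.25. Then 27 respiratory genes were higher and 9 lower at an unadjusted p under 0.05, beside 1319 higher and 1308 lower of 11719 genes. The median of the list was 0.10 beside -0.011 for all genes. With the median length over all annotated transcripts of a gene, which takes in short fragments, the median of the list was 0.28. Then 53 were higher and 10 lower, beside 1485 and 1449 of 11719 genes.

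Cytosolic ribosomal protein genes leaned higher in high embryos of F1 and F3 but not of F2. Of 81 genes tested, 42 were higher (51.9%) and 0 lower at an unadjusted p under 0.05 in limma, beside 11.4% and 13.6% of all genes. The likelihood ratio test called 3 higher and 0 lower (3.70% and 0%, beside 1.52% and 0.446% of all genes), and 0 passed the adjusted threshold in limma. The median log2 change was 0.23, with 0.30, -0.0081 and 0.37 in F1, F2 and F3. After removal of GC content and the length of the longest coding transcript it was 0.086, and with the median length over all transcripts it was 0.25. With the former, 22 were higher and 1 lower, beside 1319 and 1308 of 11719 genes. In the 2345 genes with the shortest coding transcripts, 631 were higher and 230 lower at an unadjusted p under 0.05. Rps7, of the small subunit, ran from 754 to 1494 with a median of 1036 in high and 550.0 to 955 with a median of 782 in vehicle embryos (log2 change 0.42, SE 0.105, adjusted p = 0.0543). Rpl24, of the large subunit, ran from 893 to 1796 with a median of 1199 and 604 to 1267 with a median of 901 (log2 change 0.39, SE 0.111, adjusted p = 0.0543). For Rps7 and Rpl24, 11 of 12 high embryos exceeded their vehicle median although the ranges overlapped. Rps27l and Rpl23a had log2 changes of 0.39 and 0.43. Rpl23a shares 506 of its 847 exon bases (59.7%) with Tlcd1 on the opposite strand. Rpl24 shares 484 of its 1030 (47.0%) with Gm28037 on the same strand, so reads of these shared bases cannot be assigned. Many ribosomal protein genes have processed pseudogenes, and how multi-mapping reads were counted is not given in the sources used here. In the 2344 most abundant genes 752 were higher and 259 lower at an unadjusted p under 0.05 (median 0.11). The sum of all normalized values ran from 792031 to 1162043 in vehicle and from 949931 to 1345645 in high embryos, and its part in these lists was not tested.

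Glycolytic genes leaned lower in high embryos, and 0 of 17 were higher at an unadjusted p under 0.05 in limma against 6 lower (35.3%), beside 11.4% and 13.6% of all genes, and the likelihood ratio test called 1 of the 6. Over the fits without 1 embryo, 0 to 1 were higher and 4 to 9 lower, with 1 higher in 7 of the 29 fits and 9 lower without the F1 vehicle embryo C4232.9. The median log2 change was -0.27, with -0.028, -0.36 and -0.41 in F1, F2 and F3, and -0.18 without the F3 high embryo D2204.1. The lower count was 4 without D2204.1 or the F2 high embryo D3620.3. Removal of GC content and longest coding length left 1 higher and 4 lower, beside 1319 and 1308 of 11719 genes, with a list median of -0.10. Aldoc, an aldolase isoform, ran from 2.38 to 11.8 with a median of 7.10 in high and 5.42 to 19.4 with a median of 10.9 in vehicle embryos (log2 change -0.71, SE 0.177, adjusted p = 0.0543). Ldha, the lactate dehydrogenase subunit that favours lactate production, ran from 12.3 to 51.5 with a median of 29.2 and 25.6 to 83.5 with a median of 44.6 (log2 change -0.60, SE 0.165, adjusted p = 0.0543). The ranges overlapped, with 12 of 12 high embryos of Aldoc and 11 of Ldha below their vehicle median. Tpi1 and Gpi1, isomerases of the upper pathway, had log2 changes of -0.50 and -0.47. Among 37 mitochondrial carriers tested of 39, 2 were higher and 4 lower at an unadjusted p under 0.05 (5.41% and 10.8%). Their median of -0.09 was -0.051 without the F3 high embryo E0103.2, -0.027 with upper quartile scaling and -0.0016 with GC content and longest coding length removed. Slc25a39, which imports glutathione into mitochondria, Slc25a1, the citrate carrier, and Slc25a20, the acylcarnitine carrier, had log2 changes of -0.55, -0.52 and -0.51, against 0.63 for Slc25a35, and with single embryos left out 1 to 5 were higher and 3 to 6 lower. Of 24 glutathione and NRF2 target genes, 5 were higher (20.8%) and 0 lower at an unadjusted p under 0.05 in limma, with 2 higher by the likelihood ratio test and a median of 0.11 (0.055 with GC content and longest coding length removed). With single embryos left out 3 to 7 were higher and 0 to 2 lower, the lowest higher count being without the F1 high embryo C4258.2 or the F3 high embryo E0103.2. Prdx1, a peroxide-reducing peroxiredoxin, ran from 1887 to 3584 with a median of 2721 in high and 1435 to 2724 with a median of 1961.2 in vehicle embryos (log2 change 0.42, SE 0.105, adjusted p = 0.0543). The ranges overlapped, with 10 of 12 high embryos above their vehicle median. Gpx1, a glutathione peroxidase, and Sod2, the mitochondrial superoxide dismutase, had log2 changes of 0.50 and 0.23.

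Germ cell identity and pluripotency genes leaned higher in F1 and F3 and not in F2. Of 11 germ cell identity genes, 3 were higher and 1 lower (27.3% and 9.09%) at an unadjusted p under 0.05, and the medians were 0.22, -0.076 and 0.15 in F1, F2 and F3. The lower count stayed at 1 in 13 of the 29 fits without 1 embryo, became 0 in 10 and 2 in 6, and the median of 0.11 over the generations became 0.033 without the F3 high embryo E0103.2. Of 16 pluripotency genes, 4 were higher (25.0%) and 0 lower at an unadjusted p under 0.05 in limma, beside 11.4% and 13.6% of all genes, the likelihood ratio test called 2, and the medians were 0.41, -0.11 and 0.25 in F1, F2 and F3. Dppa5a, an RNA-binding protein of pluripotent cells, ran from 1559.6 to 5423 with a median of 2883 in high and 974 to 2588 with a median of 1799.8 in vehicle embryos (log2 change 0.68, SE 0.165, adjusted p = 0.0543). Dppa3, also known as Stella, ran from 1484 to 3200.5 with a median of 2397 and 960.1 to 2037 with a median of 1689.5 (log2 change 0.49, SE 0.123, adjusted p = 0.0543). The high embryos exceeded their vehicle median in 11 of 12 for Dppa5a and 9 of 12 for Dppa3, with overlap of the ranges. Nanos3, which protects migrating germ cells from apoptosis, ran from 39.0 to 164 with a median of 80.8 in high and 29.7 to 101.2 with a median of 53 in vehicle embryos, with 1.15 in F1, -0.076 in F2 and 0.82 in F3 (adjusted p = 0.0553). Ddx4, the germ cell RNA helicase, leaned the other way, at 185 to 589 with a median of 409 in high and 320.4 to 715 with a median of 530.1 in vehicle embryos, with -0.74 in F1, 0.20 in F2 and -0.33 in F3 (adjusted p = 0.169). The ranges of both genes overlapped. Sall4 and Tfcp2l1, transcription factors of the pluripotency network, had log2 changes of 0.49 and 0.45. Dppa3 and Sall4 belong to both the germ cell identity and the pluripotency list, so the counts of higher members overlap. In bulk cells a change in the share of germ cells at 1 stage and a change in RNA per cell cannot be told apart.

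Meiotic prophase genes had a lower median in F1 and F3 and a higher one in F2. Of 26 tested of 34 listed, 1 was higher and 2 lower at an unadjusted p under 0.05 in limma (3.85% and 7.69%, beside 11.4% and 13.6% of all genes), with 0 past the adjusted threshold, 1 called higher by the likelihood ratio test, and medians of -0.77, 0.37 and -0.27 in F1, F2 and F3. The count lower became 6 without the F2 high embryo D1669.5, 5 without the vehicle embryo D3133.2 (F2) or the high embryo D2204.1 (F3), and 4 without D3620.3 or D3526.1. The median of -0.29 over the generations was -0.17 without E0103.2 (F3 high), -0.44 without D1669.5, and -0.13 without the 3 high embryos of high erythroid level described below. It was 0.068 without F1 and -0.56 without F2. Stra8, the gatekeeper of meiotic entry, ran from 11.4 to 699 with a median of 302 normalized counts in high and 62.9 to 743 with a median of 450.5 in vehicle embryos. In F1 its high embryos measured 63.7, 71.2, 112, 153 and 334 and the vehicle embryos 112, 313, 450.4, 617 and 743, and in F3 the high embryos measured 11.4, 309, 347 and 517. The ranges overlapped in each generation (log2 change -0.87, SE 0.448, adjusted p = 0.224). Without the F3 high embryo E0103.2, the log2 change of Stra8 was -0.47. Syce2, a central element protein of the synaptonemal complex, was higher in each generation, at 1044 to 2446 with a median of 1536 in high and 545 to 1731 with a median of 1081 in vehicle embryos (log2 change 0.54, SE 0.153, adjusted p = 0.0543). The ranges overlapped in each generation. Stag3 and Rec8, subunits of meiotic cohesin, were lower in each generation, with log2 changes of -0.42 and -0.79, the latter -0.50 without E0103.2. Meiob, a partner of single-strand DNA in recombination, spanned 0.713 to 46.3 with a median of 8.19 in high and 0.858 to 64.7 with a median of 10.1 in vehicle embryos, and its direction differed by generation (-1.88 in F1, 0.71 in F2 and -0.27 in F3). Sycp3, of the axial element, had -0.38 in F1, 0.79 in F2 and 0.37 in F3, and 660 of its 1264 exon bases (52.2%) are shared with Chpt1 on the opposite strand.

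BMP response and oogenic factor genes had medians below 0 in F1 and F3 and above it in F2. Of 12 tested, 0 were higher and 4 lower (33.3%) at an unadjusted p under 0.05 in limma, beside 11.4% and 13.6% of all genes, with 0 past the adjusted threshold and 1 called lower by the likelihood ratio test. The median was -0.21 over the generations and -0.26, 0.05 and -0.25 in F1, F2 and F3. With GC content and length removed, by either length, the median over the generations was -0.14. It was also -0.14 without the 3 high embryos of high erythroid level described below. Sohlh2, a transcription factor of early oocyte growth, ran from 24.3 to 157 with a median of 83.1 in high and 78.2 to 241 with a median of 121 in vehicle embryos (log2 change -0.75, SE 0.213, adjusted p = 0.0543). Msx1, a BMP-induced homeobox gene of fetal ovarian germ cells, ran from 1.97 to 10.5 with a median of 7.02 and 4.29 to 29.9 with a median of 10.9 (log2 change -0.77, SE 0.223, adjusted p = 0.0552). The ranges overlapped, while 11 of 12 high embryos of Msx1 and 9 of Sohlh2 lay below their vehicle median. Msx2 and Id1, further BMP targets, had log2 changes of -0.28 and -0.28 and were lower in each generation. Of 11 retinoic acid genes, 0 were higher and 1 lower at an unadjusted p under 0.05 in limma, namely the receptor Rarg at -0.62, 0 were called by either edgeR test, and the list median of -0.016 became 0.028 with upper quartile scaling, 0.035 without D3620.3 and -0.11 without the F1 high embryo D2582.1. Rarg had means of 0.429 in high and 1.01 in vehicle embryos. It reached the minimum mean of 0.5 only through the vehicle embryos, so the count of 1 lower is no evidence that the list leaned.

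Genes that mark the male fate of fetal germ cells were not higher as a list. Of 7 tested, 0 were higher and 2 lower (28.6%) at an unadjusted p under 0.05 in limma, beside 11.4% and 13.6% of all genes, with 0 called by either edgeR test. The lower count was 1 in 18 of the 29 fits without 1 embryo, and the median of -0.14 was -0.069 without D1824.1. Piwil4, a nuclear piRNA-binding protein of male germ cells, ran from 0.423 to 2.31 with a median of 1.42 in high and 1.23 to 3.1 with a median of 2.16 in vehicle embryos (log2 change -0.52, SE 0.161, adjusted p = 0.0562). The ranges overlapped, with 11 of 12 high embryos below their vehicle median. Of 12 Nodal and activin genes, 1 was higher and 1 lower (8.33% each, and 2 lower without C4232.9), and the median of -0.03 became 0.029 with upper quartile scaling, 0.029 without D4190.2 and -0.064 without E0103.2. Tdgf1, the Nodal co-receptor Cripto, ran from 0 to 6.91 with a median of 0.740 in high and 0 to 1.36 with a median of 0.216 in vehicle embryos, with 1.41 in F1, -0.83 in F2 and 1.66 in F3, whereas the signal transducer Smad2 had a log2 change of -0.38. The ranges of Tdgf1 overlapped, except in 1 generation. Tdgf1 was the 1 higher member, with means of 1.42 in high and 0.279 in vehicle embryos. It reached the minimum mean of 0.5 only through the high embryos, so the count of 1 higher is no evidence that the list leaned. Lefty2, a target of Nodal, had a mean under the minimum and was not tested, at 0 to 3.96 with a median of 0.292 in high and 0 to 0.670 with a median of 0.212 in vehicle embryos. Lhx1, a male germ cell target of Nodal, ran from 0.456 to 1.66 with a median of 0.899 in high and 0.310 to 2.85 with a median of 0.929 in vehicle embryos, and its log2 change of -0.083 was within 1 SE (0.201) and was -0.0018 without the F1 vehicle embryo C4605.2. Of 19 piRNA pathway genes, 2 were higher (10.5%) and 5 lower (26.3%) at an unadjusted p under 0.05, with Tdrd7, a scaffold of germ granules, lower at -0.67, and Morc1, a repressor of transposons, higher at 0.80. With single embryos left out 2 to 3 were higher and 2 to 6 lower in the piRNA list, where the lower count was 2 or 3 in 12 of the 29 fits. Piwil4 belongs to both the male fate and the piRNA list and is counted as lower in each.

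Sex-biased genes were taken from low and middle dose embryos, none of which is among the 29 embryos, as 912 male-biased and 1002 female-biased genes over 2-fold. Of the 617 male-biased genes tested, 94 were higher (15.2%) and 41 lower (6.65%) at an unadjusted p under 0.05, with a median log2 change of 0.08 and 0.21, -0.13 and 0.11 in F1, F2 and F3. The rest of the 912 had a mean under the minimum, which was taken over the same high and vehicle embryos. Members near it could thus be tested because high embryos raised their mean, and the effect on this list was not tested. Its counts and medians are therefore not independent evidence that male-biased genes leaned higher. Of the female-biased genes, 1 of which was not tested, 48 were higher (4.80%) and 138 lower (13.8%), with a median of -0.094 and -0.21, 0.088 and -0.12. In all genes tested, 11.4% were higher and 13.6% lower, with a median of -0.035. In all 3 generations, 128 male-biased genes were higher and 85 lower (20.7% and 13.8%), and 104 female-biased genes were higher and 171 lower (10.4% and 17.1%), beside 18.4% and 21.8% of all genes. The F2 medians of both lists had the opposite sign to those of F1 and F3. With upper quartile scaling the male-biased and female-biased medians were 0.13 and -0.033, beside 0.023 for all genes. Without F2 they were 0.16 and -0.17. Without the 3 high embryos of high erythroid level described below, an alternative chosen after seeing the data, the medians were 0.031 and -0.035, and without E0103.2 alone they were 0.043 and -0.039.

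**Figure D2:**
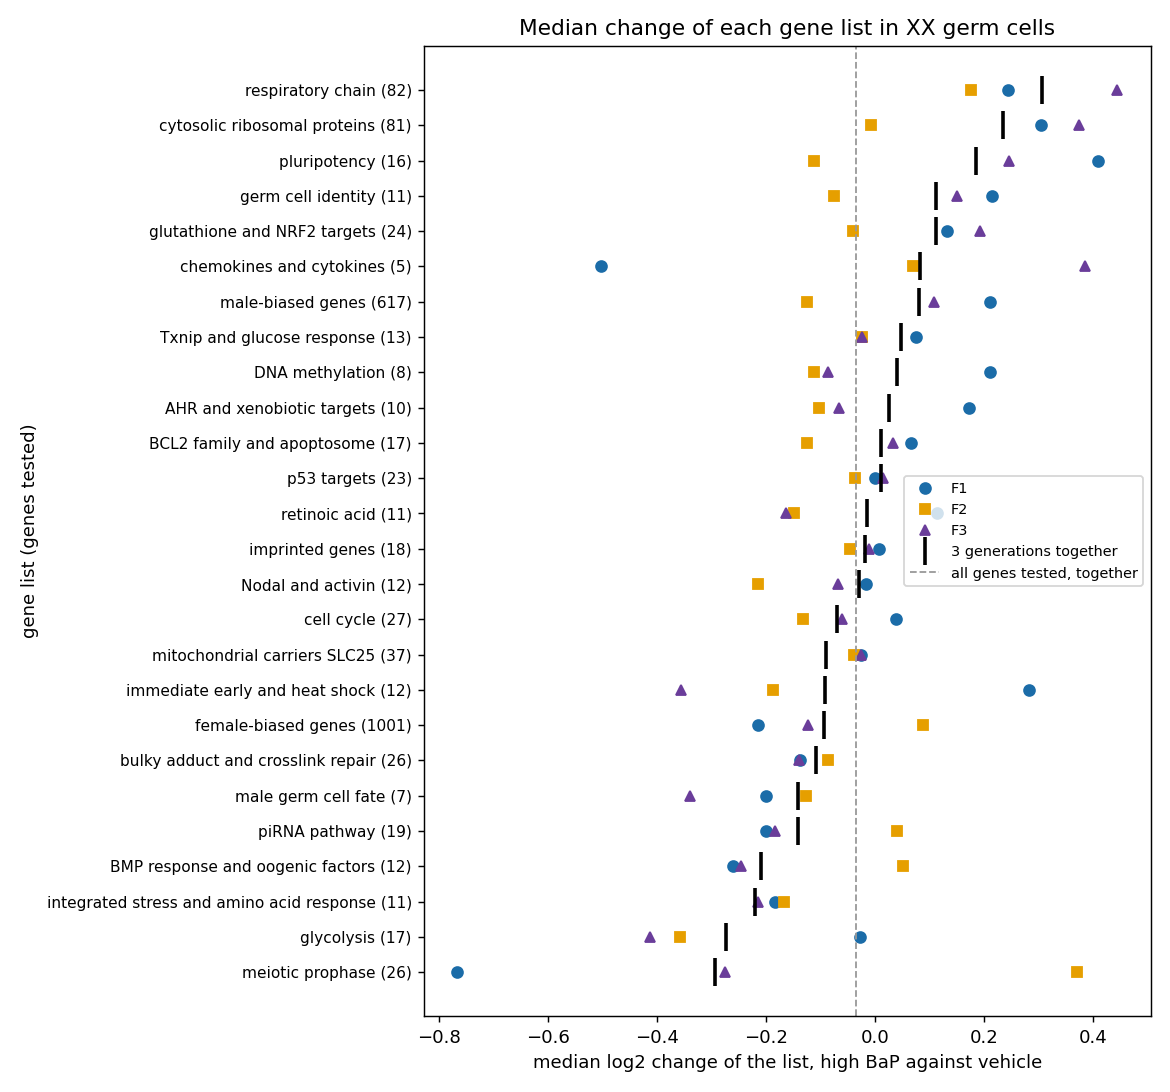
Median log2 change of high against vehicle XX embryos (horizontal axis) for each gene list (vertical axis, with the number of genes tested), in F1 (circles), F2 (squares), F3 (triangles) and the generations together (black bars), with a dashed line at the median of all genes tested. The respiratory chain stood at 0.31 and meiotic prophase at -0.29 with generations together (-0.17 without E0103.2), and the medians of the Nodal and activin, retinoic acid and imprinted lists and of all genes change sign with upper quartile scaling, which moves the last from -0.035 to 0.023.

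Few genes of the aryl hydrocarbon receptor and p53 lists, chosen for the actions of BaP, had an unadjusted p under 0.05. At that threshold, 5 of 26 repair genes were lower. Of 10 receptor and xenobiotic genes tested of 17 listed, 0 were higher and 1 lower at an unadjusted p under 0.05 in limma, with 0 called by either edgeR test. The median of 0.026 became -0.028 without E0103.2 and -0.071 without the 3 embryos of high erythroid level, and 1 was higher without the F3 high embryo D2032.2 and 2 lower without D1669.5. The lower gene with all embryos was Arnt, the partner of the receptor, at 2.71 to 6.52 with a median of 4.23 in high and 3.02 to 12.6 with a median of 6.41 in vehicle embryos (log2 change -0.54, SE 0.163, adjusted p = 0.0556). High and vehicle embryos of Arnt did not overlap in F2 and F3 but did in F1, where the log2 change was -0.10. Tiparp, a receptor target, had a log2 change of -0.26. Of 23 p53 targets, 2 were higher (8.70%) and 0 lower in limma at an unadjusted p under 0.05, beside 11.4% and 13.6% of all genes, with 0 called by either edgeR test, namely Pmaip1 (Noxa, a pro-apoptotic BCL2 protein) at 0.60 and Ccng1 (cyclin G1) at 0.28. Over the fits without 1 embryo 1 to 3 were higher and 0 to 2 lower, with 2 lower without the high embryos D1669.5 (F2) or D4190.2 (F3) or the F3 vehicle embryo D3526.1, and 1 higher without the F1 vehicle embryo C4321.6 or the F3 high embryo E0103.2. Pmaip1 ran from 0.359 to 5.83 with a median of 1.46 in high and 0 to 2.41 with a median of 0.621 in vehicle embryos, so that the groups overlapped. Of 26 genes of bulky adduct and crosslink repair, 1 was higher (3.85%) and 5 lower (19.2%) at an unadjusted p under 0.05, beside 11.4% and 13.6% of all genes. In all 3 generations 2 were higher and 10 lower (7.69% and 38.5%, beside 18.4% and 21.8% of all genes). The count of 5 lower at an unadjusted p under 0.05 became 8 without D1669.5 or D3620.3 and 3 without D4028.2, all high embryos of F2. Fancd2 was the higher member at 0.25, and Fancc, of the Fanconi core complex, was lower at -0.44.

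Apoptosis, stress and cell cycle lists held 3 or 4 genes each at an unadjusted p under 0.05. Of 17 BCL2 family and apoptosome genes, 2 were higher and 1 lower (11.8% and 5.88%, beside 11.4% and 13.6% of all genes), the last being Bcl2l1 (the survival protein BCL-XL) at 1.69 to 4.62 with a median of 2.40 in high and 1.92 to 13.8 with a median of 3.98 in vehicle embryos (log2 change -0.65, SE 0.190, adjusted p = 0.0552). The ranges overlapped. The higher count was 1 without C4258.2 or E0103.2 and 3 without D1824.1, and the lower count was 2 in 6 of the 29 fits without 1 embryo. Bcl2l11, the pro-apoptotic protein BIM, had a log2 change of 0.36. The BCL2 and p53 lists share members, so their counts are not separate observations. In the list of 11 integrated stress and amino acid response genes, 0 were higher and 3 lower (27.3%) at an unadjusted p under 0.05 in limma (5 lower without the F1 vehicle embryo C4232.9), with 0 called by either edgeR test and 7 lower in all 3 generations (63.6%, beside 21.8% of all genes). Its median was -0.22, with -0.18, -0.17 and -0.22 in F1, F2 and F3. Phgdh, the first enzyme of serine synthesis, ran from 1.37 to 7.90 with a median of 3.70 in high and 2.40 to 21.2 with a median of 5.91 in vehicle embryos (log2 change -0.71, SE 0.220, adjusted p = 0.0571), with ranges that overlapped, and the chaperone Hspa5 had a log2 change of -0.45. Of 12 immediate early and heat shock genes, 1 was higher (Nr4a1, 0.42) and 2 lower (Ier2, -0.65, and Jund, -0.56), or 8.33% and 16.7%. With single embryos left out, 0 to 2 were higher and 1 to 2 lower in that list. Of 27 cell cycle genes, 2 were higher and 2 lower (7.41% each, and with single embryos left out, 1 to 3 were higher and 2 to 5 lower), with Pcna, the sliding clamp of DNA replication, at 0.41 and the mitotic kinase Plk1 at -0.58.

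Among 18 imprinted genes tested of 24 listed, 3 were higher and 3 lower at an unadjusted p under 0.05. This was 16.7% each, beside 11.4% higher and 13.6% lower of all genes. The median of -0.018 became 0.042 with upper quartile scaling and 0.031 without D4190.2. Phlda2, a maternally expressed growth regulator, ran from 998 to 2579.8 with a median of 1474 in high and 568 to 1679 with a median of 1029 in vehicle embryos, with 0.83 in F1, 0.10 in F2 and 0.76 in F3. Cdkn1c, a cell cycle inhibitor also expressed from the maternal allele, ran from 15.9 to 50.6 with a median of 27.9 and 26.9 to 67.0 with a median of 40.6, with -0.67 in F1, -0.28 in F2 and -0.55 in F3, and Dlk1 had a log2 change of -0.76. The adjusted p was 0.0546 for Phlda2, 0.0565 for Cdkn1c and 0.0919 for Dlk1, and the groups overlapped for each. Of 8 DNA methylation genes, 0 were higher and 1 lower (12.5%) at an unadjusted p under 0.05 in limma, with 0 called by either edgeR test, namely Uhrf1, the cofactor of maintenance methylation, at -0.41, with an unadjusted p under 0.05 that 17 of the 29 embryos, each left out alone, moved above it (adjusted p = 0.195, log2 change -0.26 without E0103.2). Of 5 chemokine and cytokine genes tested of 18 listed, 2 were higher, the chemokine receptor Cxcr4 at 0.40 and the ligand Ccl28 at 0.47, and 0 were lower at an unadjusted p under 0.05 in limma with 0 called by either edgeR test. The 2 higher (40.0%, beside 11.4% of all genes) became 1 in 13 of the 29 fits without 1 embryo, and the 0 lower became 1 without the F1 vehicle embryo C4232.9. After removal of GC content and longest coding length 0 were higher. Of 21 genes named in the study's own text on these libraries and tested here, 3 were higher and 1 lower at an unadjusted p under 0.05. This was 14.3% and 4.76%, beside 11.4% and 13.6% of all genes. Since that list was chosen on these samples, it is not independent evidence of a direction.

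The dose effect did not differ between generations past an adjusted p of 0.05 for any gene in limma (0 of 12995), with 627 genes (4.82%) at an unadjusted p under 0.05. The edgeR likelihood ratio test called 3 genes, the quasi-likelihood test 0, and without the F1 high embryo D2587.1 limma called 1. Bbs12, a chaperonin-like protein of cilium assembly, had the smallest p for a difference between generations (adjusted p = 0.396). Its high embryos measured 3.60, 4.70, 5.17, 6.18 and 7.07 in F1, against 7.08, 7.28, 7.58, 7.77 and 8.31 in vehicle. In F2 the high embryos measured 6.60, 8.62 and 9.77 against 3.66 to 5.58 with a median of 5.19, and in F3 3.04, 3.1, 4.46 and 4.98 against 5.64 to 8.11 with a median of 6.94. High embryos lay below all vehicle embryos in F1 and F3 and above them in F2 (log2 changes -0.50 in F1, 0.69 in F2 and -0.75 in F3). Bbs12 was the 1 gene of those tested without overlap in all 3 generations, and 12 genes had no overlap in 2. The changes also varied with base composition, since in F2 the median log2 change was 0.19 in the 2344 genes lowest in GC content and -0.21 in the 2344 highest. The same medians were -0.14 and 0.048 in F1 and 0.040 and -0.14 in F3, and the part of GC content in the differences between generations was not tested.

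With XY embryos, 13159 genes were tested and limma called 0 at an adjusted p under 0.05, with 219 (1.66%) at an unadjusted p under 0.05 and 0 called by either edgeR test. Of the 31 XY embryos 2 shared a dam, and limma called 0 without either (222 and 221 at an unadjusted p under 0.05). The difference of the XX and XY effects was not past an adjusted p of 0.05 for any of 13306 genes in limma, with 952 (7.15%) at an unadjusted p under 0.05 and 0 called by either edgeR test. That fit took embryos as independent, although 25 of the 34 dams gave both an XX and an XY embryo. With dam as a block, an alternative added after seeing the data (estimated correlation 0.245), 1513 genes (11.4%) had an unadjusted p under 0.05 and limma called 1, Ccdc120 (adjusted p = 0.0451). Without the block, the smallest adjusted p was 0.243, also for Ccdc120, with a log2 change of -0.44 in XX and 0.55 in XY embryos. C2cd2, Fam188b and Vps8 were likewise of opposite sign, with -0.34, -0.68 and -0.49 in XX and 0.42, 0.32 and 0.35 in XY embryos, while Cmah, which hydroxylates sialic acid, had 0.49 and -0.60, the former 0.30 without E0103.2. Median XY changes were 0.11 for the respiratory chain and 0.087 for ribosomal proteins. In a fit of all 48 XX embryos and 13042 genes, limma called 8 genes for the high dose, 0 for the low dose (374 at an unadjusted p under 0.05) and 0 for the middle dose (128). The likelihood ratio test called 8 for the low dose and the quasi-likelihood test 3, and 0 were called for the middle dose by either. The respiratory chain medians at the low and middle dose, set against the same vehicle embryos, were 0.11 and -0.0073.

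RNA of other cells was low but uneven, and the summed erythroid level was high in single embryos of both groups. Of 12 erythroid genes, 7 were measured and 5 tested, of which 4 were higher and 0 lower at an unadjusted p under 0.05 in limma, while the likelihood ratio test called 4. Since Hba-x and Hbb-y, with vehicle means of 0 and 0.00125, were tested only because high embryos raised their mean over the minimum, the count of 4 is no evidence that the list leaned. The summed erythroid level was 1.5 to 1654 with a median of 4.10 in high and 0.694 to 224 with a median of 2.35 in vehicle embryos. The high values were 1654 in the F1 embryo D2582.1, 1451 in the F3 embryo E0103.2 and 409 in the F2 embryo D3620.3, and 224 in the F2 vehicle embryo D2991.1, and all 25 other embryos were at or below 7.85. The most abundant erythroid genes, Hba-a1 and Hba-a2, are near-identical and cannot be told apart by reads, and Hba-a2 ran from 0.136 to 826 with a median of 1.52 in high and 0 to 112 with a median of 0.647 in vehicle embryos. The embryonic globins Hba-x and Hbb-y were at 0 in 17 and 16 of the 17 vehicle embryos and reached 178 and 69.6 in high embryos, whereas Alas2 stayed at or below 0.756 in each embryo. Their log2 changes rest on few embryos, as that of Hba-a2 was 2.13 with all embryos and 1.41 without E0103.2. Without the 3 high embryos of erythroid level over 300, chosen after seeing the data, 1027 genes were higher and 1204 lower at an unadjusted p under 0.05 with 0 past the adjusted threshold in limma, and the respiratory chain median was 0.24.

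Of 11 macrophage genes tested of 14 listed, 0 were higher or lower at an unadjusted p under 0.05 in limma, and 0 were called by either edgeR test. Their sum was 7.78 to 69.4 with a median of 34.0 in high and 3.91 to 51.5 with a median of 34.4 in vehicle embryos, C1qb was the most abundant, and Ptprc was at 0 in 7 of 12 high and 8 of 17 vehicle embryos. In F2 the high sums of 7.78, 13.2 and 16.5 all lay below the vehicle sums of 19.8 to 51.5, whereas the high medians were above the vehicle medians in F1 (41.0 and 34.4) and F3 (34.0 and 16.9). The median log2 changes of the list were 0.33, -0.94 and 0.72 in F1, F2 and F3. The 8 Sertoli genes, of which 1 of 2 tested was higher, summed to 17.9 to 116 with a median of 23.2 in high and 12.4 to 37.3 with a median of 21.3 in vehicle embryos, but this came from Aard, the most abundant, at 16.8 to 112 with a median of 21.4 in high and 11.6 to 35.7 with a median of 18.9 in vehicle embryos. Sox9 and Amh, which define Sertoli cells, were at 0 in 9 and 8 of the 12 high embryos and at or below 0.432 in each of the rest. The 9 pregranulosa genes measured of 10 (6 tested) summed to 27.5 to 89.6 with a median of 59.1 and 23.2 to 74.6 with a median of 50.0, mostly from Gng13, with Wnt4 lower at -0.51. The 8 endothelial genes measured of 10 (5 tested) summed to 25.4 to 53.7 with a median of 42.0 and 25.3 to 70.9 with a median of 42.6, mostly from Pecam1, which germ cells also express, with Egfl7 lower at -0.36 and Emcn at 0 in 7 of 12 high and 13 of 17 vehicle embryos. The 6 surface epithelium and keratin genes measured of 11 (5 tested) summed to 173 to 241 with a median of 192 and 173 to 271 with a median of 198, mostly from Epcam, which germ cells also express, with Krt18 lower at -0.55. The fetal Leydig list (5 genes, median sum 3.95 in high and 3.14 in vehicle embryos, most from Insl3) and the stroma list (10 of 11 genes measured, 4.34 and 2.55, most from Wnt5a) had 0 genes at an unadjusted p under 0.05 in limma and 0 called by either edgeR test. Of the stroma sums, the F1 high embryos at 4.75 to 15.5 all lay above the F1 vehicle embryos at 1.39 to 3.08. Mast cell genes (3 of 4 measured, most from Cma1) were at 0 in 8 of 12 high and 14 of 17 vehicle embryos and reached 50.7 in the F1 high embryo D2587.1, 24.8 in the F3 high embryo D2032.2 and 38.2 in the F2 vehicle embryo D2991.1. Gng13 shares 399 of its 773 exon bases (51.6%) with Chtf18, and Insl3 shares 404 of 623 (64.8%) with Jak3, so reads of the shared bases cannot be assigned. The part of these cells in the differences between groups was not tested beyond the fits without single embryos and without the 3 embryos of high erythroid level.

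**Figure D3:**
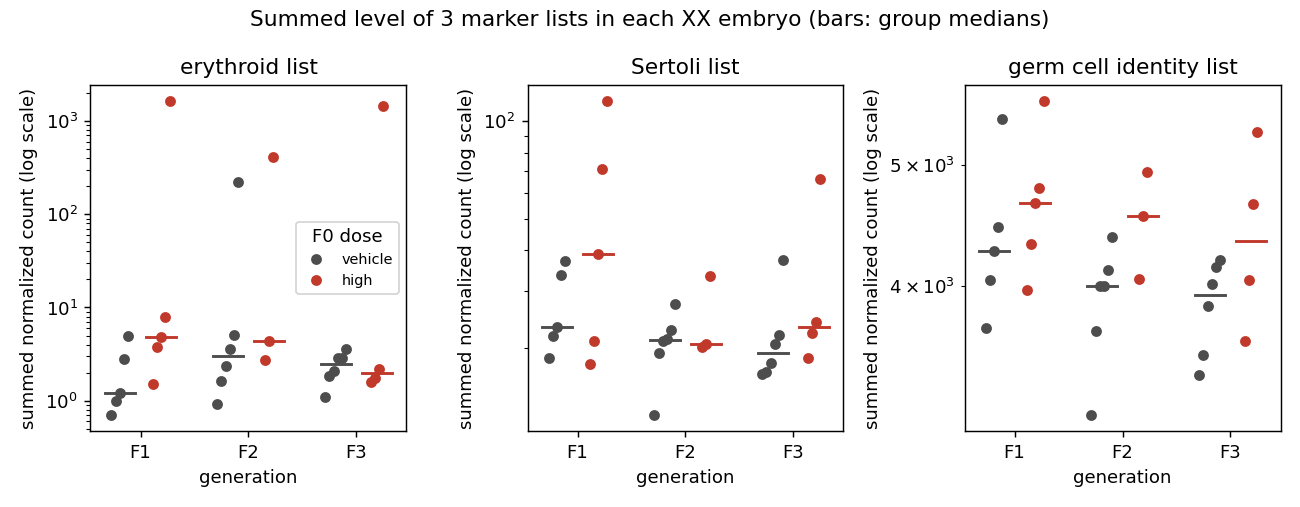
Summed normalized counts (vertical axes, log scale) of the erythroid, Sertoli and germ cell identity lists in each XX embryo by generation (horizontal axes), with vehicle embryos in grey, high embryos in red and bars at group medians. Erythroid sums reached 1654 in F1 and 1451 in F3 high embryos against medians of 4.10 in high and 2.35 in vehicle embryos, while germ cell sums had medians of 4602 and 4014.

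Promoter sequences were available for 17 of the 27 leading genes, as 300 bases around the start in RefSeq on GRCm38.p6. Gm15441, Slc25a35 and Gm5083 were not among them. The xenobiotic response element TNGCGTG, searched on both strands, was found at 2 of the 17 genes, Efemp2 and Dapk3, each at 1 of 3 annotated starts. Counted by promoter this was 2 of 24, and the element occurs in 5.07% of all 32851 promoters of the same length. The E box CACGTG, a palindrome, was found at 1 gene, Prkaca, at 1 of 2 starts and so in 1 of 24 promoters, and occurs in 7.15% of all promoters. These 3 promoters are shown because they hold a match. Those of Sirt2 and Tma7, the genes of smallest p in each direction, follow and held neither motif. The promoters shown lie at chr19:5473696-5473995 (plus strand, Efemp2), chr10:81183013-81183312 (plus, Dapk3), chr8:83972728-83973027 (plus, Prkaca), chr7:28766502-28766801 (plus, Sirt2) and chr9:109082332-109082631 (minus, Tma7). Capitals mark the motif, as read on the strand of the gene, so that the response element appears as its reverse complement.
Efemp2: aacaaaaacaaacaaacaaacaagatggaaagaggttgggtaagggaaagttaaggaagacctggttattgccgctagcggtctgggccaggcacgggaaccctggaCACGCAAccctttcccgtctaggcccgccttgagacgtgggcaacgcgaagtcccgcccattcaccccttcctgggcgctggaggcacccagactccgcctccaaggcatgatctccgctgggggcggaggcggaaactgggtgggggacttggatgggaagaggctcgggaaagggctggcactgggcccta
Dapk3: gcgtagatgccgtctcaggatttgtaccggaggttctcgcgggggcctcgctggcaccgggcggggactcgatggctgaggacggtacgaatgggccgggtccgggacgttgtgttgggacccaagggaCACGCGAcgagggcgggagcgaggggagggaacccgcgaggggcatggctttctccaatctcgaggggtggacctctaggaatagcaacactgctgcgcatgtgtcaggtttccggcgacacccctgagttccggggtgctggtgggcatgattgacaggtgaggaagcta
Prkaca: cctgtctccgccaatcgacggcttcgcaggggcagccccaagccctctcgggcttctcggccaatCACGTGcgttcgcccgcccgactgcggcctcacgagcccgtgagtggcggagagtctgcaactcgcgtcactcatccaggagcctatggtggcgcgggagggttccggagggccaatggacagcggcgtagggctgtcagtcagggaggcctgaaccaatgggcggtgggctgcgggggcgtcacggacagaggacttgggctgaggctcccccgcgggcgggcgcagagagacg
Sirt2: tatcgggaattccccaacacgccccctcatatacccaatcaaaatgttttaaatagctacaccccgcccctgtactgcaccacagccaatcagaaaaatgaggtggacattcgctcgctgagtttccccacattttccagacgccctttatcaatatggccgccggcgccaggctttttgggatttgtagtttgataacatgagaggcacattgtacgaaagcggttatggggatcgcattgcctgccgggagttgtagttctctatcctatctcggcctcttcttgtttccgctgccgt
Tma7: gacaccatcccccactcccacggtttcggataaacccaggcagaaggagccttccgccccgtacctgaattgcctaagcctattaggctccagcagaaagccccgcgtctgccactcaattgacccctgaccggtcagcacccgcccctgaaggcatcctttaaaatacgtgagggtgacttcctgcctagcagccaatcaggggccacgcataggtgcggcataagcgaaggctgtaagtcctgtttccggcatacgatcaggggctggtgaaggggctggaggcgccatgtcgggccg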

How the data were processed

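RNA of EGFP-positive germ cells from single embryos was sequenced as paired-end reads from an unstranded low-input kit. The authors trimmed reads with Trim Galore, aligned them with STAR to GRCm38 (mm10), counted exon reads per gene with Rsubread and scaled the counts with edgeR TMM, and deposited 1 table of normalized count signal for all 101 embryos; versions of these tools are not given in the sources used here. Here, all values of 99 of the 101 columns were whole multiples of the value of 1 read (100.0% within 0.05), which gave recovered reads for 28 of the 29 embryos, from 5004382 to 54698496 per embryo over the genes of the table, and not reads sequenced. Values were taken as log2 after adding 0.5, and the genes whose mean normalized count reached 0.5 went into limma 3.58.1 in R 4.3.3 (trend, with generation as a term, 1 embryo per dam as the replicate), with p adjusted over all genes tested by Benjamini-Hochberg. Terms for each generation and for dose by generation were fitted in the same way. The fits of XY embryos, of dose by sex and of sex bias hold embryos that share a dam and took them as independent, and dam as a block, or leaving out either of 2 XY littermates, was added as an alternative after seeing the data. The dam was taken to be the number before the point in the labels, which do not name it as a dam. Embryos of F2 or F3 from different dams may share a dosed F0 ancestor, which the labels do not show, and were taken as independent. edgeR 4.0.16 on recovered reads called 1 gene (quasi-likelihood) and 255 genes (likelihood ratio) where limma called 0. Scripts were tested on simulated data.

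Alternatives were other added constants and minimum means, upper quartile scaling, the edgeR tests, a depth term, no generation term, equal weights of generations, all 48 XX embryos, and leaving out the deep libraries, each generation and each embryo. Removal of trends with GC content and length, taken from the median over all annotated transcripts of a gene or from its longest coding transcript, and leaving out 3 embryos of high erythroid level, were chosen after seeing the data. Positions and overlaps come from GENCODE on GRCm38, the build the authors used. Genes named were drawn from the 3 leading genes, the 20 with the smallest p, the 10 with the smallest largest p over generations, the genes the study's text names (of which 9 of the 21 tested are named here), up to 4 per list by p, and 5 per interaction. Outside this rule, Pou5f1, Lefty2, Alas2, Ptprc, Sox9, Amh and Emcn were named as members of the lists, and Rangrf after its values were seen. Chpt1, Chtf18, Cnot3, Gm28037, Jak3 and Tlcd1 were named for shared exon bases. The members and lists were chosen with earlier results of these data known.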

Additional observations from a re-analysis of the deposited data

Results flagged for a closer look

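In groups of 4 to 6 embryos, 94 sets of group values were examined and 17 held 1 embryo far from the others. The cutoff marks about 1 group in 20 for normally distributed values. Some of these quantities, such as the erythroid sums, were strongly skewed, and the sets share embryos. The count of 17 is therefore no evidence of an excess over chance. Gm15441 was 8.05 normalized counts in the F2 vehicle embryo D3133.2 (next 5.65) and 11.0 in the F3 vehicle embryo D1344.3 (next 6.4), and the gene 2310003H01Rik was 2.12 in the F1 high embryo C4219.4 (next 4.35). Without D1344.3 or D3133.2 the Gm15441 log2 change was -0.65 and -0.68, beside -0.71 with all embryos.

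Summed levels of other cells stood apart in single embryos. The erythroid sum was 1654 in D2582.1 (F1 high), 224 in D2991.1 (F2 vehicle) and 1451 in E0103.2 (F3 high). The mast cell sum was 50.7 in D2587.1 (F1 high), 38.2 in D2991.1 and 24.8 in D2032.2 (F3 high). E0103.2 also had the highest Sertoli (66.3) and stroma (7.05) sums of its group, and the F3 vehicle embryo D1388.3 those of its own (37.3 and 31). D3133.2 had high endothelial (70.9), Leydig (6.94) and epithelial (244) sums for its group. Recovered reads were 54698496 in the F1 vehicle embryo C4232.9 (next 9745816). The causes were not tested.

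Bbs12 was marked by a difference between generations, since all high embryos lay on 1 side of the vehicle embryos in each generation but the side changed, with log2 changes of -0.50 in F1, 0.69 in F2 and -0.75 in F3. The test of that difference gave an adjusted p of 0.396 in limma.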

How the results depend on the processing

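The count of genes past an adjusted p of 0.05 between high and vehicle embryos depended on the setting. It was 0 higher and 0 lower as reported, and 435 and 402 with a minimum mean of 5, 495 and 466 with no generation term, 353 and 282 with a depth term, 197 and 58 by the likelihood ratio test, 1 and 0 by the quasi-likelihood test, and 1 and 7 in the fit of all 48 XX embryos. With single embryos left out it ranged from 0 to 674 higher and from 0 to 689 lower. Fewer genes are adjusted for at the higher minimum, but the cause was not tested for any of these settings. At an unadjusted p under 0.05, 534 genes were higher and 641 lower without F3, in a fit with fewer embryos.

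The count of genes of 1 direction with an unadjusted p under 0.05 in each generation, 3 as reported, was 1 with upper quartile scaling, by the quasi-likelihood test, without the deep F1 libraries, with GC content and length removed, or without the 3 embryos of high erythroid level, and 0 by the likelihood ratio test. It ranged from 0 to 18 with single embryos left out. The likelihood ratio test called 71 genes in F1, 3 for a difference between generations and 8 at the low dose, where the quasi-likelihood test called 3. With single embryos left out, these counts in limma ranged from 0 to 253 in F1, 0 to 136 in F3 and 0 to 1 for the difference between generations. With a minimum mean of 5, where fewer genes were tested, 425 genes were male-biased and 448 female-biased. With dam as a block, 1 gene passed for XX minus XY where 0 did without it, and 920 male-biased and 1014 female-biased genes were found beside 912 and 1002 without it.

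Of 5140 values of 110 named genes under the alternatives, 4479 kept direction and side of the threshold, 652 kept direction and passed it, and 9 changed direction. These were Lhx1 at 0.033 with GC content and length removed, 0.0077 with the longest coding length instead, 0.019 without F1 and 0.054 without F2, Meiob at 0.17 without F1, Rps27l at -0.0085 and Sycp3 at -0.10 with GC content and longest coding length removed, Sycp3 at -0.010 without F2, and Bbs12 at 0.028 without F3. The cause was not tested. Effects of F2 rest on 3 high embryos, the libraries do not mark strand, and embryos with 5004382 recovered reads resolve genes near 1 normalized count to a few reads.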
